A study of Mus musculus with 72 samples.

Results

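The 59 genes described here encode nucleolar factors that assemble and process ribosomes, and were taken from a list of names. That list was drawn up with earlier results of these data known. All 59 were present in each of the 4 count tables, among 35149 genes for acute input RNA, 30901 for acute polysomal RNA and 35556 for each relapse table, and all 59 passed the filter on low counts. Input is cytoplasmic RNA, and polysomal RNA is the gradient fraction of mRNA carrying 4 or more ribosomes. Both were depleted of rRNA and sequenced as 50 bp single-end reads. All samples derive from Eμ-Myc B lymphoma, in which an immunoglobulin enhancer drives Myc in B cells of the mouse. In the acute experiment, cells of clone 4242 carrying MSCV-Gfp were transplanted into C57BL/6 mice, and 6 mice per group were dosed on day 10 and harvested after 2 h. One group received vehicle, one CX-5461 (35 mg/kg), one everolimus (5 mg/kg), and the last the combination at those doses. CX-5461 is an inhibitor of RNA polymerase I transcription, and everolimus inhibits mTORC1. In the relapse experiment, lines of clone 107 were grown from lymph nodes of mice at the end point of a survival experiment and cultured for 2 to 3 passages. It comprised 3 drug-naive lines from vehicle-treated mice (6, 33 and 38), 3 resistant to CX-5461 (14, 20 and 39), 3 resistant to everolimus (4, 12 and 26) and 3 resistant to the combination (8, 9 and 31). Each experiment thus rests on 1 lymphoma clone, and every group, vehicle and naive included, carries the Myc transgene.

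Ribosome assembly begins in the nucleolus on the rRNA precursor made by RNA polymerase I. Box C/D and H/ACA small nucleolar ribonucleoproteins modify and help fold the rRNA, and the small-subunit processome, built from the UtpA, UtpB and Mpp10 modules around U3 RNA, cleaves the precursor and shapes the 40S subunit. The PeBoW complex and many helicases, GTPases and scaffold proteins form the 60S subunit, after which late factors carry the subunits to the cytoplasm. Many of these genes are known targets of Myc, and mTORC1 signalling is known to act on both rRNA synthesis and the translation of ribosomal protein mRNA. By role, the list held 4 box C/D and U3 proteins, 4 H/ACA proteins, 3 abundant nucleolar proteins, 4 UtpA, 6 UtpB and 3 Mpp10 proteins, 10 other small-subunit processome factors, 6 late 40S factors, 3 PeBoW proteins and 16 other 60S factors.

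Base composition is shown first because several of the differences below followed it. The coding sequences of 3 members that were higher in resistant lines and 3 that were lower in at least one resistant group are given from codon 101 to codon 140, with G and C in capitals. These 6 were chosen after their values were seen and do not stand for all called members. Wdr12 (40.4% G and C in the transcript) and Wdr3 (46.9%) were higher in input of CX-5461-resistant lines. Emg1 (51.4%) was lower in input of combination-resistant lines. They are from GENCODE transcripts on GRCm38, all on the minus strand, and the intervals span introns between coding exons. The intervals are chr15:76455955-76466819 for Bop1, chr17:24705441-24705643 for Tbl3, chr5:110651712-110652357 for Noc4l, chr15:10479265-10481730 for Brix1, chr13:8991755-8991954 for Gtpbp4 and chr11:33160373-33160879 for Npm1.
Bop1: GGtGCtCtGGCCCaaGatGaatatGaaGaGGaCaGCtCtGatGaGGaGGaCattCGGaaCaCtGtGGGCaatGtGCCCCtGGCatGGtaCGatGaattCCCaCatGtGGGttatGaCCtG
Tbl3: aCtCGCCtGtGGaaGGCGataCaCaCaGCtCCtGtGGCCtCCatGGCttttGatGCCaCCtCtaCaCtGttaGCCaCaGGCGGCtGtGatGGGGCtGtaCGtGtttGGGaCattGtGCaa
Noc4l: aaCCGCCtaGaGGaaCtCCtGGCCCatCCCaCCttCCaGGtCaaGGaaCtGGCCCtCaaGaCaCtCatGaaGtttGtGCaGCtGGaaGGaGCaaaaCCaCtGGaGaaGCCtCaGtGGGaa
Brix1: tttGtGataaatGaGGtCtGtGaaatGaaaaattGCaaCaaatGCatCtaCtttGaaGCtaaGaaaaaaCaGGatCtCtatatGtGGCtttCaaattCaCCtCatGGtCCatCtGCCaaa
Gtpbp4: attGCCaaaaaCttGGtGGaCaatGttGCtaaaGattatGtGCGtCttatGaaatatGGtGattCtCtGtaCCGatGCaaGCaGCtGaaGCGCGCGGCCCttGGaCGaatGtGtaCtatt
Npm1: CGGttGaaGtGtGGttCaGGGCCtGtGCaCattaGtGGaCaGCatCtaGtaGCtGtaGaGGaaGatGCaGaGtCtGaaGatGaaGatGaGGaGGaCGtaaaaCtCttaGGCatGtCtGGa
G and C make up 52.5% of the Bop1 stretch, 55.8% of Tbl3 and 55.0% of Noc4l, against 35.0% of Brix1, 44.2% of Gtpbp4 and 48.3% of Npm1. Over whole coding sequences the percentage at the third codon base was 67.9 in Bop1, 62.3 in Tbl3 and 70.9 in Noc4l, and 44.8 in Brix1, 46.4 in Gtpbp4 and 35.3 in Npm1. Across the 59 members this third-base content ran from 34.8% to 80.4% with a median of 53.1%, below the median of 60.8% over the 12940 tested genes with a coding sequence. Transcript GC content ran from 40.4% to 59.8% with a median of 47.3%.

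The promoters of the members were searched for CACGTG, the E-box that Myc and Max bind, which reads the same on both strands. RefSeq promoters (GRCm38.p6, 250 bases before to 50 after the start) were held for 50 members, of which 8 (16%) contained it, against 11.3% of 10656 tested genes and 8.09% of all 27025 symbols. In 3 members it lay upstream of the start, shown with the motif in capitals at chr1:34439681-34439740 (plus strand), chr6:125131796-125131855 (plus strand) and chr11:93885767-93885826 (minus strand).
Imp4: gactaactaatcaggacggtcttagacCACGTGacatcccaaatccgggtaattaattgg
Nop2: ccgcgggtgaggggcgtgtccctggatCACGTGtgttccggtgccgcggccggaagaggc
Utp18: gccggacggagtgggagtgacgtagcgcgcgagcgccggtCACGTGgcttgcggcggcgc
Imp4 belongs to the Mpp10 complex, Nop2 is an rRNA methyltransferase of the 60S pathway, and Utp18 is a UtpB protein. In Ltv1, Pes1, Tsr1, Utp20 and Wdr43 the motif lay after the start.

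Libraries held 11528341 to 30383886 counts over the 4 tables, and the members together made up 0.483% to 1.04% of input counts and 1.07% to 1.54% of polysomal counts. Lars2 and Yam1 together took up to 26.2% of counts in vehicle and 10.8% in CX-5461 polysomal libraries of the acute set. Gm26870 and Gm10800 took up to 23.3% in CX-5461 and 18.4% in everolimus acute input. Rn7sk and Rpph1 together took 6.44% to 10.3% of counts in naive relapse input. They took 11.3% to 11.7% in CX-5461-resistant, 11.7% to 13.6% in everolimus-resistant and 12.5% to 14.5% in combination-resistant input. The lowest single count of a member in any library was 81. B cell markers summed to 1490 to 1850 CPM (counts scaled to library size) in acute input. Relapse lines held 5.2 to 8.06 CPM of macrophage markers in input, against 526 to 823 CPM in the acute samples. Of 20 listed T cell markers, Trbc2 was at 0 in input of every relapse group, and 7 passed the filter on low counts. The sum of these markers was nonetheless 268 to 552 CPM in relapse input, against 162 to 299 CPM in acute input. Their sum therefore need not measure T cells alone. The polysomal libraries of CX-5461-resistant lines 14 and 39 stood apart from the other 10, and their columns form a run of their own in the deposited table. Relapse input columns fall into 2 runs. The input libraries of everolimus mice 1 and 3 were the most alike of the acute set, with a variance between them 1.31 times that of sampling.

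How far the members' mRNA was associated with heavy polysomes without drug was read from the ratio of polysomal to input level in vehicle mice and naive lines. Since each fraction is scaled to its own total, a ratio above 0 on the log2 scale is relative to all genes. In vehicle mice 39 of 59 members were higher in polysomes and 8 lower (edgeR quasi-likelihood test with mouse as a block, Benjamini-Hochberg adjusted p under 0.05), where 24.7% of all genes tested were higher and 32.2% lower, in sum 56.9%. The median member difference was 0.27, against -0.065 over all genes. In naive lines 40 members were higher and 7 lower, where 23% of all genes were higher and 21.1% lower, in sum 44.1%. The median member difference there was 0.96 against -0.10 over all genes.

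The 60S factors are given first. Rrp15, a factor of 60S maturation, had polysome to input log2 ratios from 0.93 to 1.37 with a median of 1.15 in the 6 vehicle mice, so every mouse lay above 0. Its difference was 1.16 ± 0.06 (SE). In naive lines 6, 33 and 38 the ratios of Rrp15 were 1.22, 1.87 and 1.53, and its difference was 1.54 ± 0.20 (SE). Ebna1bp2, which binds the 60S precursor, ranged from 0.82 to 1.03 with a median of 0.87 in vehicle mice, again above 0 in each. Gtpbp4 and Ddx21, an RNA helicase, differed by 0.69 ± 0.04 and 0.69 ± 0.05 in vehicle mice and by 1.49 ± 0.19 and 1.44 ± 0.15 in naive lines (SE). Among 40S factors Utp6 of UtpB was at 0.73 ± 0.05 and 1.65 ± 0.18, Utp3 at 0.70 and Mphosph10 at 0.69 in vehicle mice, and Riok2 at 1.66 ± 0.20 and Wdr3 at 1.56 ± 0.09 in naive lines (SE). Of the 16 other 60S factors 12 were higher and none lower in vehicle mice, and 12 were higher and 2 lower in naive lines.

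The proteins of the modification particles differed in sign. Dkc1, the pseudouridine synthase of H/ACA particles, had ratios of 1.5, 1.96 and 2.26 in naive lines, with a difference of 1.91 ± 0.22 (SE). Nop10, a small protein of the same particle, ranged from -0.85 to -0.51 in vehicle mice, below 0 in all 6, and its difference was -0.66 ± 0.06 (SE), while Gar1 of that particle was at 0.68 ± 0.07. All 3 abundant nucleolar proteins, Ncl, Npm1 and Nolc1, were higher in polysomes in both settings. With each library adjusted along a curve of GC content, Ncl went from 1.22 to 0.45 (edgeR adjusted p = 0.055) and Npm1 from 1.20 to 0.43 (edgeR adjusted p = 0.203) in naive lines, so these calls were lost there, while Nolc1 passed at 0.96. Of the 4 UtpA genes 3 were higher in vehicle mice and 4 in naive lines.

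Fewer members were lower in polysomes. Rrp12, a late export factor, had ratios of -0.45, -1.34 and -1.21 in naive lines and a difference of -1.0 ± 0.17 (SE). Rrp9, the U3-specific protein, had ratios of -0.12, -1.53 and -1.26, all below 0 but spread over more than 1 log2 unit. Noc4l, a 40S precursor factor, was lower in both settings, by -0.24 ± 0.06 (SE) in vehicle mice and -0.67 ± 0.11 in naive lines. Nol6 was lower in both, by -0.19 ± 0.07 and -0.81 ± 0.14, as was Rrp12, at -0.20 ± 0.08 in vehicle mice (SE). Pes1, Tbl3, Imp4 and Pwp2 were lower in vehicle mice, and Nop2, Noc2l and Bop1 in naive lines. The PeBoW genes differed from each other: Wdr12 was higher in both settings, by 0.15 and 0.96, Pes1 was lower in vehicle mice alone and Bop1 in naive lines alone. Members with the lower GC content carried the higher ratios: at or below the median of 47.3%, 28 of 30 were higher and none lower in naive lines, and above it 12 of 29 were higher and 7 lower. With the GC curve 31 were higher and 5 lower in naive lines, but of the 7 lower members only Rrp12 still passed, at -0.56. Rrp9 went to -0.30, Noc4l to -0.27 (edgeR adjusted p = 0.112), Nol6 to -0.27, Nop2 to -0.21, Noc2l to -0.083 and Bop1, with its sign changed, to 0.10. The Wdr12 calls were lost in both settings, at 0.031 and 0.23, and in vehicle mice those of Rrp12 and Pwp2, at -0.11 and -0.083.

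**Figure D1:**
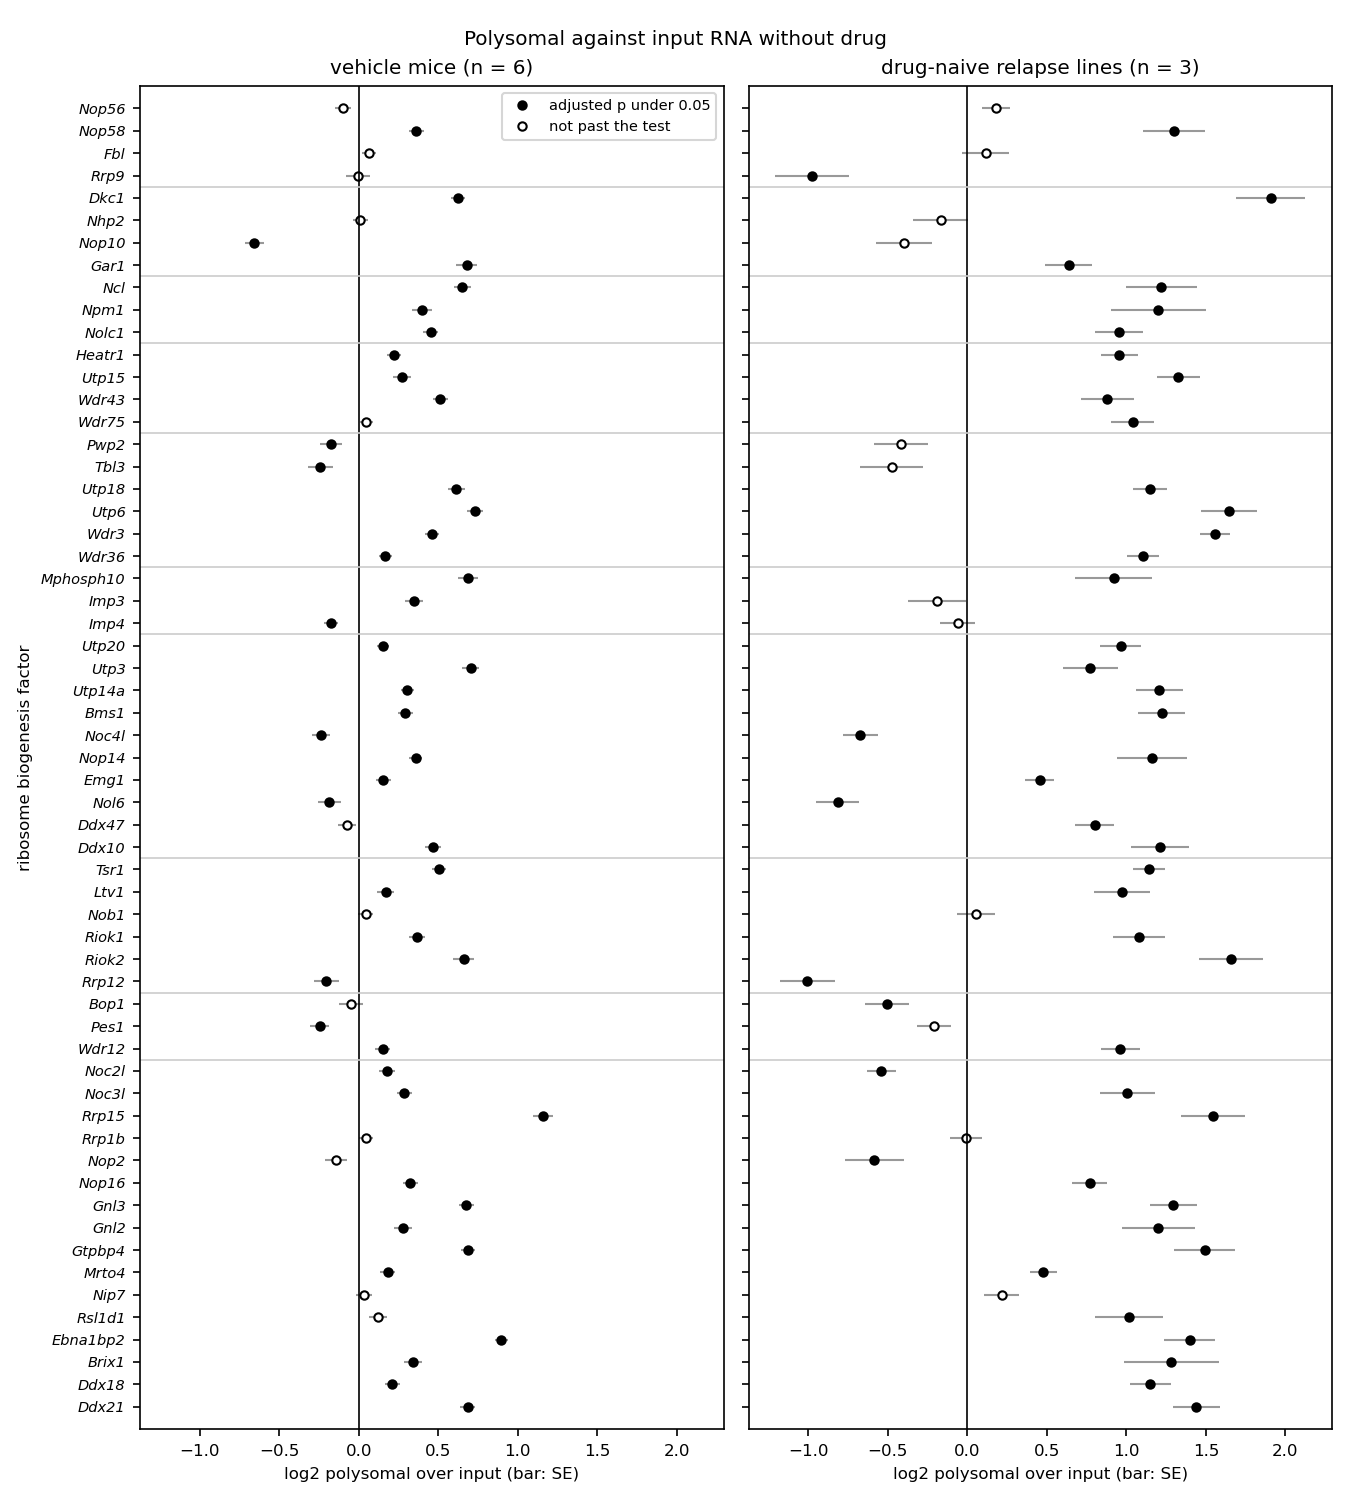
Polysomal over input level (log2) of the 59 members in vehicle mice (n = 6) and naive lines (n = 3); points are fitted differences and bars are SE. Rrp15 stands highest in vehicle mice at 1.16 and Dkc1 highest in naive lines at 1.91, while Nop10 and Rrp12 lie below 0.

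The acute comparisons asked what 2 h of drug did to these genes. In input RNA, CX-5461 called 1 member: Rrp15 rose by 0.28 ± 0.06 (SE, edgeR adjusted p = 0.0481), beside 0.399% of all genes called (0.0125% higher and 0.386% lower). Its levels ran from 4.76 to 5.07 log2 CPM with a median of 4.92 in vehicle mice and from 4.99 to 5.35 with a median of 5.22 in CX-5461 mice. The groups overlapped at their edges, and Rrp15 passed in 3 of 10 alternative analyses. In polysomal RNA no member passed under CX-5461 (13 at unadjusted p under 0.05, and 3 with DESeq2), beside 0.878% of all genes. There Npm1, a histone and rRNA chaperone, had the highest estimate at 0.30 ± 0.09 (SE) and Pwp2, of UtpB, the lowest at -0.22 ± 0.07. In bulk samples fewer cells of a type and less RNA per cell cannot be told apart. T cell markers (20 genes) summed to 240 to 299 CPM in vehicle input and 168 to 236 CPM in CX-5461 input. The same list gave 268 to 552 CPM in input of the cultured relapse lines, so its sum need not measure T cells alone. Their part in these results was not tested.

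Under everolimus no member passed in either fraction by edgeR or DESeq2 (11 at unadjusted p under 0.05 in input and 18 in polysomal RNA), beside 0.106% of all genes in input (0.0436% higher and 0.0623% lower) and 0.15% in polysomal RNA (0.0455% and 0.104%). Most estimates were below 0: 50 of 59 in input, with a median of -0.099, and 48 of 59 in polysomal RNA, with a median of -0.081. In input the lowest was Ddx47, a small-subunit helicase, at -0.26 ± 0.09 (SE) and the highest Rrp15 at 0.16 ± 0.06. In polysomal RNA the lowest was Gnl3, the GTPase also called nucleostemin, at -0.20 ± 0.07 (SE), and the highest Nop10 at 0.066.

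The combination against vehicle gave 1 lower member in input RNA, beside 7.48% of all genes called (3.31% higher and 4.17% lower). Mrto4, which holds the place of the P0 protein on the 60S precursor, fell by 0.30 ± 0.09 (SE, edgeR adjusted p = 0.0428). Its input levels ran from 6.36 to 6.89 log2 CPM with a median of 6.57 in vehicle mice and from 6.04 to 6.48 with a median of 6.31 in combination mice. The ranges overlapped, and Mrto4 passed in 5 of 10 alternative analyses, not with the GC curve, where it was at -0.19. Bop1 of PeBoW, at -0.36 ± 0.11 (SE, edgeR adjusted p = 0.0511), and Rrp9, at -0.37 ± 0.12 (edgeR adjusted p = 0.0525), lay just outside the threshold. T cell markers summed to 162 to 249 CPM in input of combination mice, against 240 to 299 CPM in vehicle mice, and reads with no gene made up 11.5% to 19.7% against 6.07% to 14.9%. The part of the T cell markers in the result was not tested. With the share of reads with no gene as a covariate no member passed in input and 11 passed in polysomal RNA.

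In polysomal RNA the combination lowered 5 members and raised none, beside 7.42% of all genes called (4.46% higher and 2.95% lower). These were Nip7 and Mrto4 of the 60S pathway, Emg1, an rRNA methyltransferase of the 40S pathway, Noc3l of the 60S pathway and Ltv1, a late 40S factor. Nip7 ran from 6.77 to 7.11 log2 CPM with a median of 6.94 in vehicle mice and from 6.47 to 6.76 with a median of 6.65 in combination mice. These groups did not overlap, and Nip7 fell by 0.29 ± 0.08 (SE, edgeR adjusted p = 0.0279). Mrto4 fell by 0.29 ± 0.08 and Emg1 by 0.28 ± 0.08 (SE), Noc3l by 0.22 ± 0.06 and Ltv1 by 0.21 ± 0.06 (SE). Of 10 alternative analyses Nip7 passed in 10, Noc3l in 8, Mrto4 and Emg1 in 6 each and Ltv1 in 4. Spearman's rho between transcript length and the difference was 0.5 over members and 0.32 over all genes with a value. The part of length was not tested beyond the GC and length curves. The median over 59 members was -0.081. Members named whatever their result included Fbl, the box C/D methyltransferase, at -0.19 ± 0.06, Nop56 at -0.024 ± 0.05, Dkc1 at -0.002 ± 0.06 and Heatr1 of UtpA at 0.004 ± 0.06 (SE), none of which passed. With the replicate number as a block 2 members passed, and with no count filter 1.

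The widest acute difference lay between the combination and CX-5461 alone, in polysomal RNA. There 25 of 59 members passed, 23 lower and 2 higher with the combination, beside 23.6% of all genes called (10.5% lower and 13.1% higher). The median was -0.14, and 48 of 59 estimates were below 0. By role, 10 of 16 other 60S factors were lower and none higher, 3 of 10 other small-subunit processome factors were lower and 1 higher, and 2 of 3 abundant nucleolar proteins were lower. No PeBoW member passed. This comparison shares the combination mice with the one against vehicle, so they are not independent of each other. It does not show which group moved from the vehicle level. T cell markers summed to 269 to 311 CPM in polysomal RNA of CX-5461 mice and 265 to 330 CPM in combination mice.

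Npm1 had the largest difference below 0. Its polysomal level ran from 10.57 to 10.97 log2 CPM with a median of 10.77 in CX-5461 mice, and from 10.20 to 10.44 with a median of 10.33 in combination mice, so the groups did not overlap. The difference was -0.44 ± 0.09 (SE, edgeR adjusted p = 0.00227). Vehicle mice lay between, from 10.34 to 10.54, overlapping the combination. Npm1 has processed pseudogene copies, and how the authors' counting treated them is not given in the sources used here.

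Brix1, a protein of the 60S precursor, was lower too. Its levels ran from 6.24 to 6.54 with a median of 6.43 in CX-5461 mice and from 5.90 to 6.16 with a median of 5.92 in combination mice. The groups did not overlap, and the difference was -0.42 ± 0.08 (SE, edgeR adjusted p = 0.00146). Noc3l ran from 5.61 to 5.75 in CX-5461 mice and from 5.20 to 5.45 in combination mice, again without overlap, and differed by -0.36 ± 0.06 (SE, edgeR adjusted p = 0.0011). Nop58, a core box C/D protein, ran from 8.54 to 8.73 and from 8.23 to 8.43, without overlap, with a difference of -0.33 ± 0.06 (SE). Rsl1d1, a nucleolar protein, differed by -0.41 ± 0.09, Rrp15 by -0.36 ± 0.07, Nop10 by -0.34 ± 0.11 and Gnl3 by -0.32 ± 0.07 (SE). For Rrp15 the groups overlapped, at 6.51 to 6.72 against 6.12 to 6.59. Mean levels in vehicle, CX-5461 and combination mice in turn were 8.41, 8.63 and 8.3 for Nop58 and 6.38, 6.66 and 6.3 for Rrp15. They were 6.22, 6.4 and 5.98 for Brix1, 5.54, 5.68 and 5.32 for Noc3l and 8.01, 8.14 and 7.74 for Rsl1d1. Nop10 was at 5.98, 6.16 and 5.83, and Gnl3 at 7.56, 7.72 and 7.4.

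Rrp12, whose protein takes part in export of both subunits, ran from 6.88 to 7.32 with a median of 7.01 in CX-5461 mice and from 7.18 to 7.43 with a median of 7.31 in combination mice. The groups overlapped, and it was higher with the combination by 0.26 ± 0.09 (SE, edgeR adjusted p = 0.029). Nol6, of the small-subunit processome, was higher by 0.24 ± 0.07 (SE, edgeR adjusted p = 0.0212). Mean levels in vehicle, CX-5461 and combination mice in turn were 7.26, 7.05 and 7.32 for Rrp12 and 8.03, 7.86 and 8.1 for Nol6. Both had GC contents above the member median, and neither passed when libraries were adjusted along the GC curve, where 17 members were lower and 2 others higher. Of the 23 lower members 9 were not called there, among them Nip7, Ddx47, Gtpbp4 and Ncl. Nop58, Npm1, Utp15, Noc3l, Gnl3, Rsl1d1, Ebna1bp2 and Brix1 passed in all 10 alternative analyses. In input RNA no member passed for the same contrast by edgeR (18 at unadjusted p under 0.05, and 5 with DESeq2), beside 0.866% of all genes, and the median was -0.11. The lowest estimate was Rrp9, at -0.32 ± 0.12, and the highest Bms1, at 0.086 ± 0.06 (SE).

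**Figure D2:**
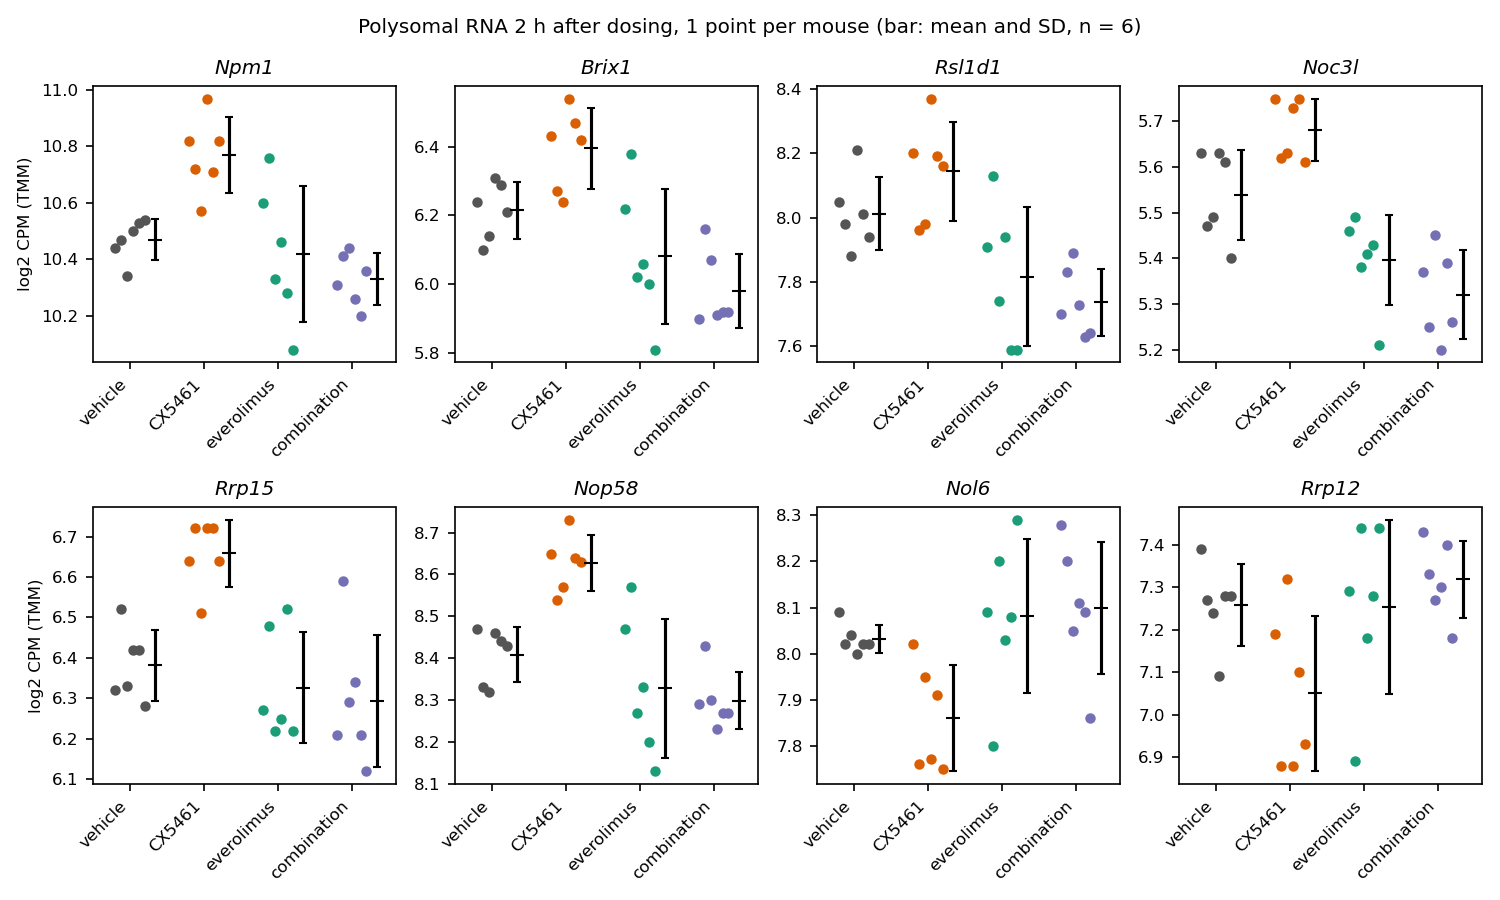
Polysomal log2 CPM of 8 members in each mouse of the 4 acute groups; points are mice and bars are mean and SD (n = 6). Npm1, Brix1, Noc3l and Nop58 are lower in all combination mice than in all CX-5461 mice, and Nol6 and Rrp12 are higher on average with the combination.

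The combination against everolimus called no member in input (9 at unadjusted p under 0.05) or polysomal RNA (5), by edgeR or by DESeq2. It called 0% of all genes in input and 0.0195% in polysomal RNA, and the member medians were 0.01 and 0.002. Estimates ran from -0.25 ± 0.11 (Bop1) to 0.18 ± 0.08 (Ddx21) in input and from -0.23 ± 0.10 (Nop10) to 0.22 ± 0.10 (Bms1) in polysomal RNA (SE).

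Resistant lines were compared with naive lines, and both differ from the acute samples in clone and in culture. In input RNA 6 members were higher and 1 lower in CX-5461-resistant lines against naive, beside 8.37% of all genes called (4.61% higher and 3.76% lower). In everolimus-resistant lines 8 were higher and 8 lower, beside 11.7% (6.25% higher and 5.46% lower), and in combination-resistant lines 5 were higher and 4 lower, beside 13.5% (7.2% higher and 6.31% lower). In turn these were 11.9%, 27.1% and 15.3% of members, the last near the share of all genes. The same 3 naive lines serve all of these contrasts. Their input libraries also held a smaller share of Rn7sk and Rpph1 than those of every resistant line, and the part of this was not tested. By edgeR, Bop1, Tbl3, Noc4l and Pwp2 were higher in each of them, and the Pwp2 calls were the least stable of these.

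Bop1, the PeBoW scaffold, had input levels of 6.96, 7.20 and 7.22 log2 CPM in naive lines. It had 8.01, 7.71 and 7.89 in CX-5461-resistant, 7.64, 8.04 and 7.89 in everolimus-resistant and 7.96, 8.03 and 7.97 in combination-resistant lines. Every resistant line lay above every naive line. The differences were 0.74 ± 0.14, 0.74 ± 0.14 and 0.86 ± 0.14 (SE), with edgeR adjusted p of 0.00765, 0.0137 and 0.00329.

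Tbl3, a UtpB protein, had 6.09, 6.70 and 6.60 in naive lines and lay between 7.05 and 7.55 in all 9 resistant lines, with differences of 0.71 ± 0.17, 0.79 ± 0.17 and 0.98 ± 0.17 (SE). Noc4l had 6.30, 6.15 and 6.18 in naive lines and 6.73 to 7.41 in resistant lines, without overlap, with differences of 0.66 ± 0.15, 0.62 ± 0.15 and 0.89 ± 0.15 (SE). Pwp2 had 5.83, 5.72 and 5.75 in naive lines and 6.04 to 6.24 in resistant lines. Its differences were 0.41, 0.38 and 0.34, each ± 0.10 (SE). Pwp2 passed in 3, 3 and 2 of 7 alternative analyses and in 7, 2 and 0 of 12 that left out a line. With the GC curve it passed in none of the contrasts, at 0.30, 0.11 and 0.17. Nol6 passed in the everolimus and combination contrasts, at 0.65 ± 0.14 and 0.66 ± 0.14 (SE). Wdr3, of UtpB, passed in the CX-5461 contrast at 0.64 ± 0.16 (SE), as did Wdr12 of PeBoW at 0.43 ± 0.12. Imp3, Pes1 and Noc2l passed only in the everolimus contrast; whether they differ between contrasts was not tested.

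Among falling genes, Brix1 had 5.32, 5.13 and 4.76 in naive lines, 4.29, 4.08 and 4.04 in everolimus-resistant and 4.25, 4.35 and 4.77 in combination-resistant lines. Everolimus lines lay below all naive lines, whereas combination line 31 overlapped. The differences were -0.95 ± 0.18 (SE, edgeR adjusted p = 0.014) and -0.61 ± 0.17 (edgeR adjusted p = 0.037). In the combination contrast Brix1 passed in 3 of 7 alternative analyses and 4 of 12 that left out a line, and was at -0.25 with the GC curve (edgeR adjusted p = 0.245). Ddx47 had 5.46, 5.50 and 5.13 in naive lines, 4.75, 4.92 and 4.71 in CX-5461-resistant and 4.72, 4.77 and 4.92 in combination-resistant lines, without overlap. It differed by -0.57 ± 0.13 and -0.56 ± 0.13 (SE).

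Gtpbp4, a nucleolar GTPase of the 60S pathway, had 5.38, 4.76 and 4.78 in naive and 4.20, 3.97 and 4.44 in everolimus-resistant lines, without overlap, and differed by -0.79 ± 0.23 (SE). Utp6 fell by 0.78 ± 0.17, Rsl1d1 by 0.70 ± 0.15, Nop58 by 0.68 ± 0.18, Ddx10 by 0.59, Npm1 by 0.53 ± 0.14 and Gnl2, a 60S GTPase, by 0.46 ± 0.13 (SE) in everolimus-resistant lines. Bms1, a GTPase of the small-subunit processome, fell by 0.71 ± 0.19 and Emg1 by 0.39 ± 0.11 (SE) in combination-resistant lines. Riok2, a late 40S kinase, was at -0.98 ± 0.30 in the everolimus contrast (edgeR adjusted p = 0.0509) and was not called.

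The everolimus calls followed base composition. Of 29 members above the median GC content 8 were higher and 1 lower, and of 30 at or below it none was higher and 7 were lower. Spearman's rho between GC content and the difference was 0.82 over the 59 members and 0.58 over all genes with a value; the members share libraries, so this is a description. Adjusting the libraries along the GC curve left 0 members called in this contrast, 10 in the CX-5461 contrast (7 higher and 3 lower) and 8 in the combination contrast (5 and 3). Of the named calls Pwp2 and Noc4l were lost in the CX-5461 contrast, Noc4l at 0.52 (edgeR adjusted p = 0.0553), and Pwp2, Brix1 and Nol6 in the combination contrast, Nol6 at 0.37 (edgeR adjusted p = 0.0582). The everolimus count was 0 without line 12 and 0 without line 26, and the CX-5461 count was 0 without line 14 and 1 without line 39. Bop1, Tbl3 and Noc4l were called in the combination contrast in all 12 analyses leaving out a line, Nol6 in 11, Ddx47 and Bms1 in 9, Brix1 in 4, Emg1 in 3 and Pwp2 in 0. The part of base composition in these results was not tested beyond the GC curves.

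**Figure D3:**
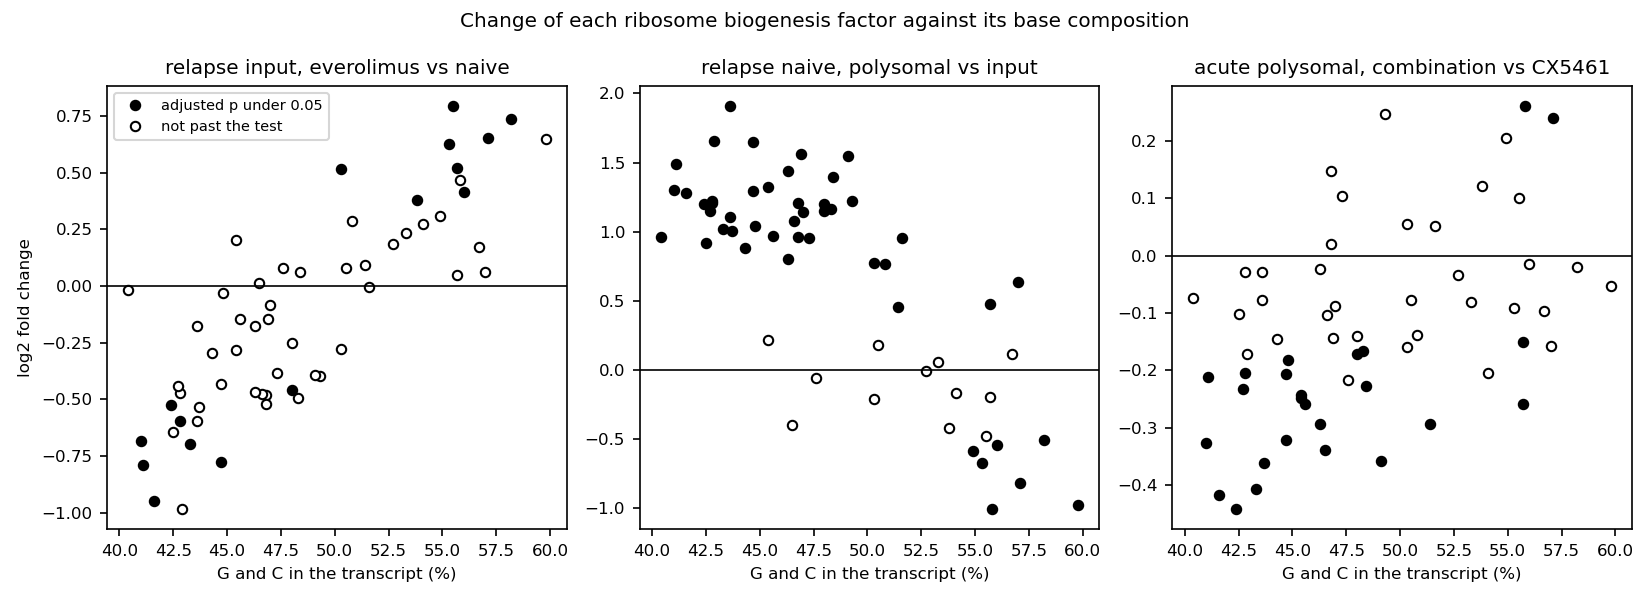
Log2 difference of each of the 59 members against transcript GC content (%) in 3 comparisons: everolimus-resistant against naive input, naive polysomal against input, and acute polysomal combination against CX-5461. Spearman's rho over members is 0.82 in the first, -0.71 in the second and 0.47 in the third.

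In polysomal RNA, CX-5461-resistant lines had 5 members higher and 3 lower than naive lines, beside 19.5% of all genes called (11.4% higher and 8.08% lower). Combination-resistant lines had 7 higher and 2 lower, beside 10% (4.78% higher and 5.22% lower). These were 13.6% and 15.3% of members, the first below the share of all genes. Everolimus-resistant lines had none by edgeR or DESeq2 (1 at unadjusted p under 0.05), beside 0.115% of all genes (0.0946% higher and 0.0203% lower), with estimates from -0.34 ± 0.21 (Utp6) to 0.40 ± 0.20 (Bop1).

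Tbl3 had polysomal levels of 6.89, 6.39 and 6.67 log2 CPM in naive lines and 7.57, 7.77 and 7.98 in combination-resistant lines, without overlap, a difference of 1.12 ± 0.22 (SE, edgeR adjusted p = 0.012). CX-5461-resistant lines had 8.08, 7.16 and 7.79, with a difference of 1.06 ± 0.22. Line 20 was the lowest of these and still lay above the naive lines. Bop1 had 7.42, 7.16 and 7.27 in naive and 8.04, 8.16 and 8.48 in combination-resistant lines, without overlap, a difference of 0.95 ± 0.21 (SE). In CX-5461-resistant lines Bop1 had 8.67, 7.78 and 8.36, all above naive, a difference of 1.03 ± 0.21. Wdr3 had 6.89, 6.67 and 6.65 in naive, 7.49, 7.44 and 7.45 in CX-5461-resistant and 7.32, 7.23 and 7.53 in combination-resistant lines, without overlap. Its differences were 0.71 ± 0.12 and 0.62 ± 0.12 (SE).

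Ddx47 had 6.65, 6.92 and 6.90 in naive and 6.18, 5.90 and 6.11 in combination-resistant lines, without overlap, and fell by 0.76 ± 0.14 (SE, edgeR adjusted p = 0.00873). Emg1 fell by 0.57 ± 0.11 (SE) in the combination contrast, and Nol6 rose by 0.75 ± 0.16, Noc4l by 0.61 ± 0.15, Ddx18 by 0.49 ± 0.11 and Wdr36 by 0.41 ± 0.11. Rrp9 rose by 1.11 ± 0.25 and Imp3 by 0.85 ± 0.20 (SE) in the CX-5461 contrast, where Bms1 fell by 0.94 ± 0.17, Ltv1 by 0.55 ± 0.16 and Ddx47 by 0.54 ± 0.14. With the GC curve the Ddx47 call in the CX-5461 contrast was lost, at -0.36 (edgeR adjusted p = 0.105). Ddx47, Emg1, Tbl3, Bop1, Wdr3 and Nol6 passed in the combination contrast in all 8 alternatives.

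The polysomal libraries of CX-5461 lines 14 and 39 stand apart, as Brix1 shows, with 5.62 and 5.55 in these lines against 7.20 in line 20, and 6.76 to 7.27 in naive lines. Without both lines 0 members passed, and without line 20 there were 39 (12 higher and 27 lower). The polysome to input log2 ratio of Npm1 was -0.10 and 0.07 in lines 14 and 39 and 1.87 in line 20, and that of Ncl 0.26, 0.04 and 1.51. The combination count was 2 without naive line 33 or naive line 38, and 16 without CX-5461 line 20.

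**Figure D4:**
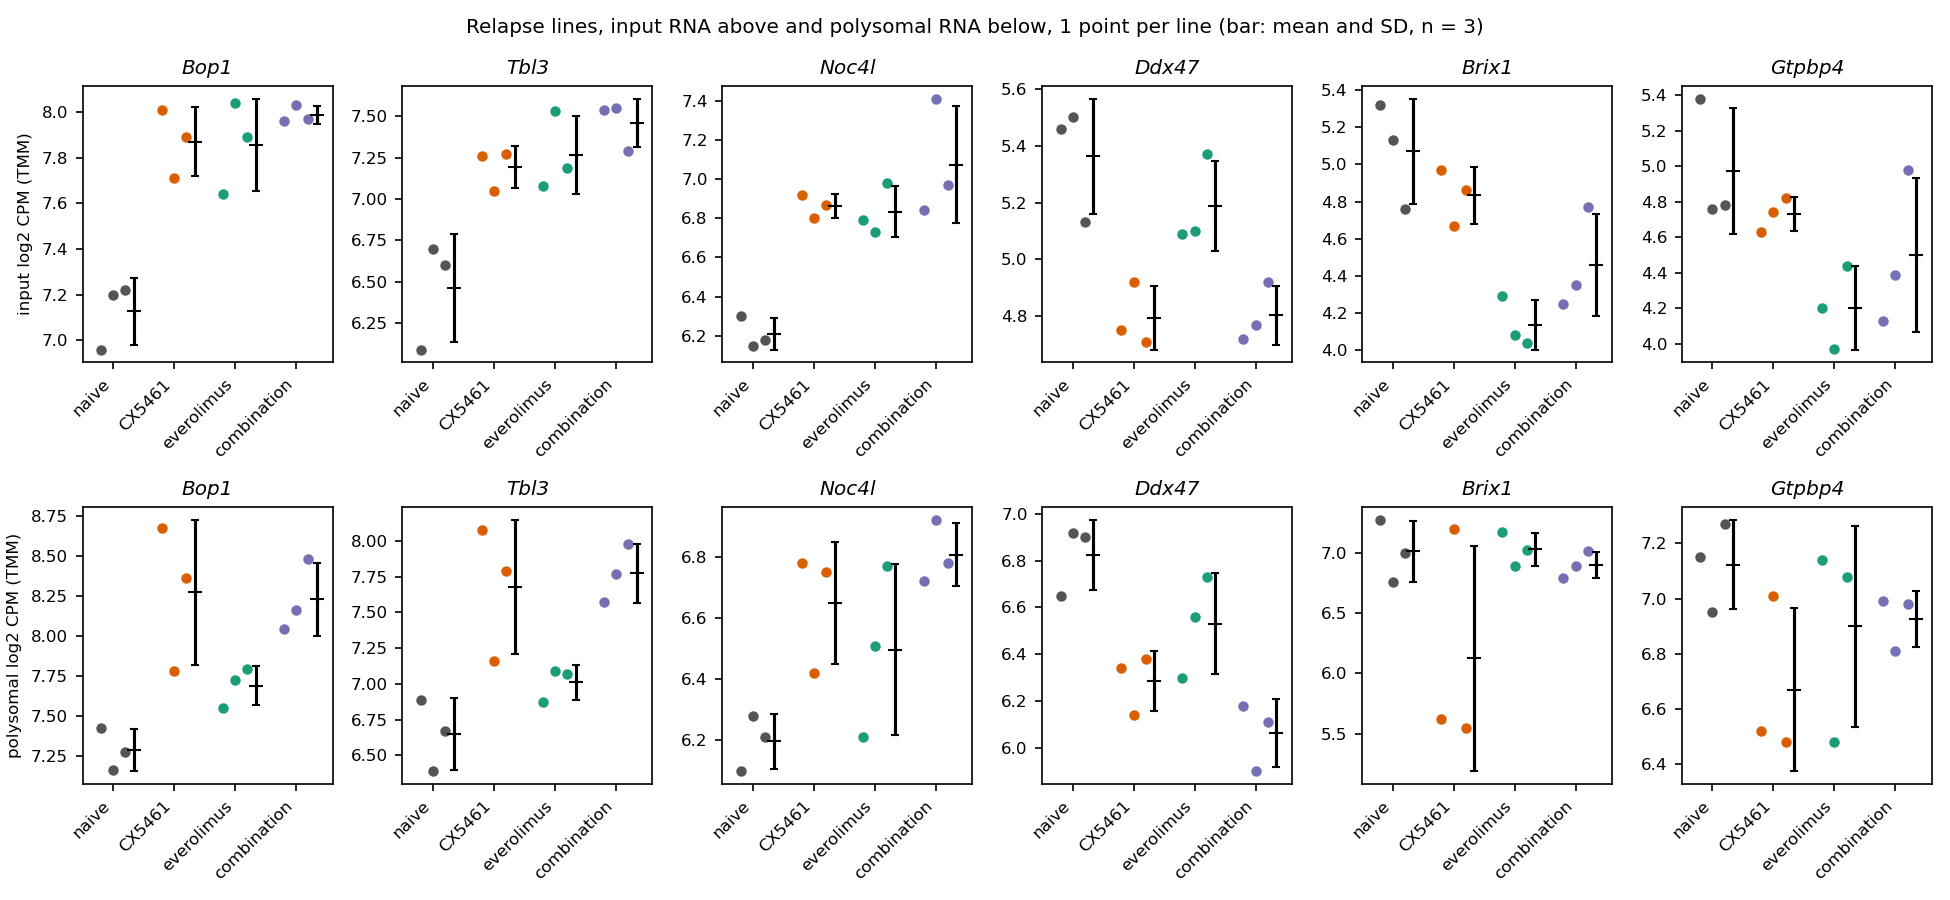
Log2 CPM of 6 members in each relapse line, input above and polysomal below, with points for lines and bars for the mean and SD (n = 3). Bop1, Tbl3 and Noc4l are higher in resistant than in naive input, and Brix1 in CX-5461 lines 14 and 39 is low in polysomal RNA.

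Combination-resistant against everolimus-resistant lines called no member by edgeR in input (11 at unadjusted p under 0.05, and 3 with DESeq2) or polysomal RNA (16, and 9 with DESeq2), beside 0.719% and 0.703% of all genes. The median differences were 0.12 and 0.20, and in input estimates ran from -0.51 ± 0.16 (Nop2) to 0.63 ± 0.16 (Nop14). In polysomal RNA they ran from -0.47 ± 0.14 (Ddx47) to 0.77 ± 0.22 (Tbl3, edgeR adjusted p = 0.12).

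Whether the polysome to input ratio itself moved with drug was tested as a fraction by treatment term. No member passed in any of the 6 contrasts by edgeR. At unadjusted p under 0.05 there were 3, 5 and 10 for acute CX-5461, everolimus and combination, and 9, 12 and 4 for the same relapse contrasts. DESeq2 called 0 members in each acute contrast and 4, 1 and 0 in the relapse contrasts. No gene at all was called by edgeR in any of the 6 (0% of all genes tested). In the acute contrasts the estimates ran from -0.085 (Utp20) to 0.18 (Rsl1d1) for CX-5461, from -0.21 (Rrp15) to 0.18 (Ddx47) for everolimus and from -0.24 (Brix1) to 0.30 (Rrp12) for the combination. In the relapse contrasts they ran from -0.77 (Ltv1) to 0.49 (Rrp9), from -0.48 (Pwp2) to 1.01 (Riok2) and from -0.27 (Noc4l) to 0.67 (Riok2).

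Over the 18 drug contrasts of level, 38 members passed in at least 1 and 21 in none. The matching share of all genes was not counted, single contrasts called up to 23.6% of all genes, and contrasts share groups. These counts are therefore not a result about the members as a set. Bop1, Tbl3 and Ddx47 passed in 5. Among the 21 were Fbl, Nop56, Dkc1, Nhp2 and Gar1, which with Nop58 and Nop10 are the core modification-particle proteins among the 59. Heatr1, Utp20 and Mphosph10 of the small-subunit processome were also among the 21. Riok2, given above, came nearest to the threshold in relapse input. Mphosph10 was at -0.65 ± 0.22 in the everolimus contrast (SE, edgeR adjusted p = 0.0706) and -0.62 ± 0.21 in the combination contrast (edgeR adjusted p = 0.075). Dkc1 was at -0.59 ± 0.20 in the everolimus contrast (SE, edgeR adjusted p = 0.0682). The summed level of all 59 in acute polysomal RNA ran from 13415 to 14409 CPM in vehicle, 14170 to 15456 in CX-5461, 12571 to 14144 in everolimus and 12521 to 14381 in combination mice. Every pair of these groups overlapped except CX-5461 and everolimus. In relapse input it ran from 5129 to 5689 CPM in naive lines and from 5794 to 6224 in CX-5461-resistant lines, which did not overlap, and from 5244 to 5830 in the other resistant lines.

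**Figure D5:**
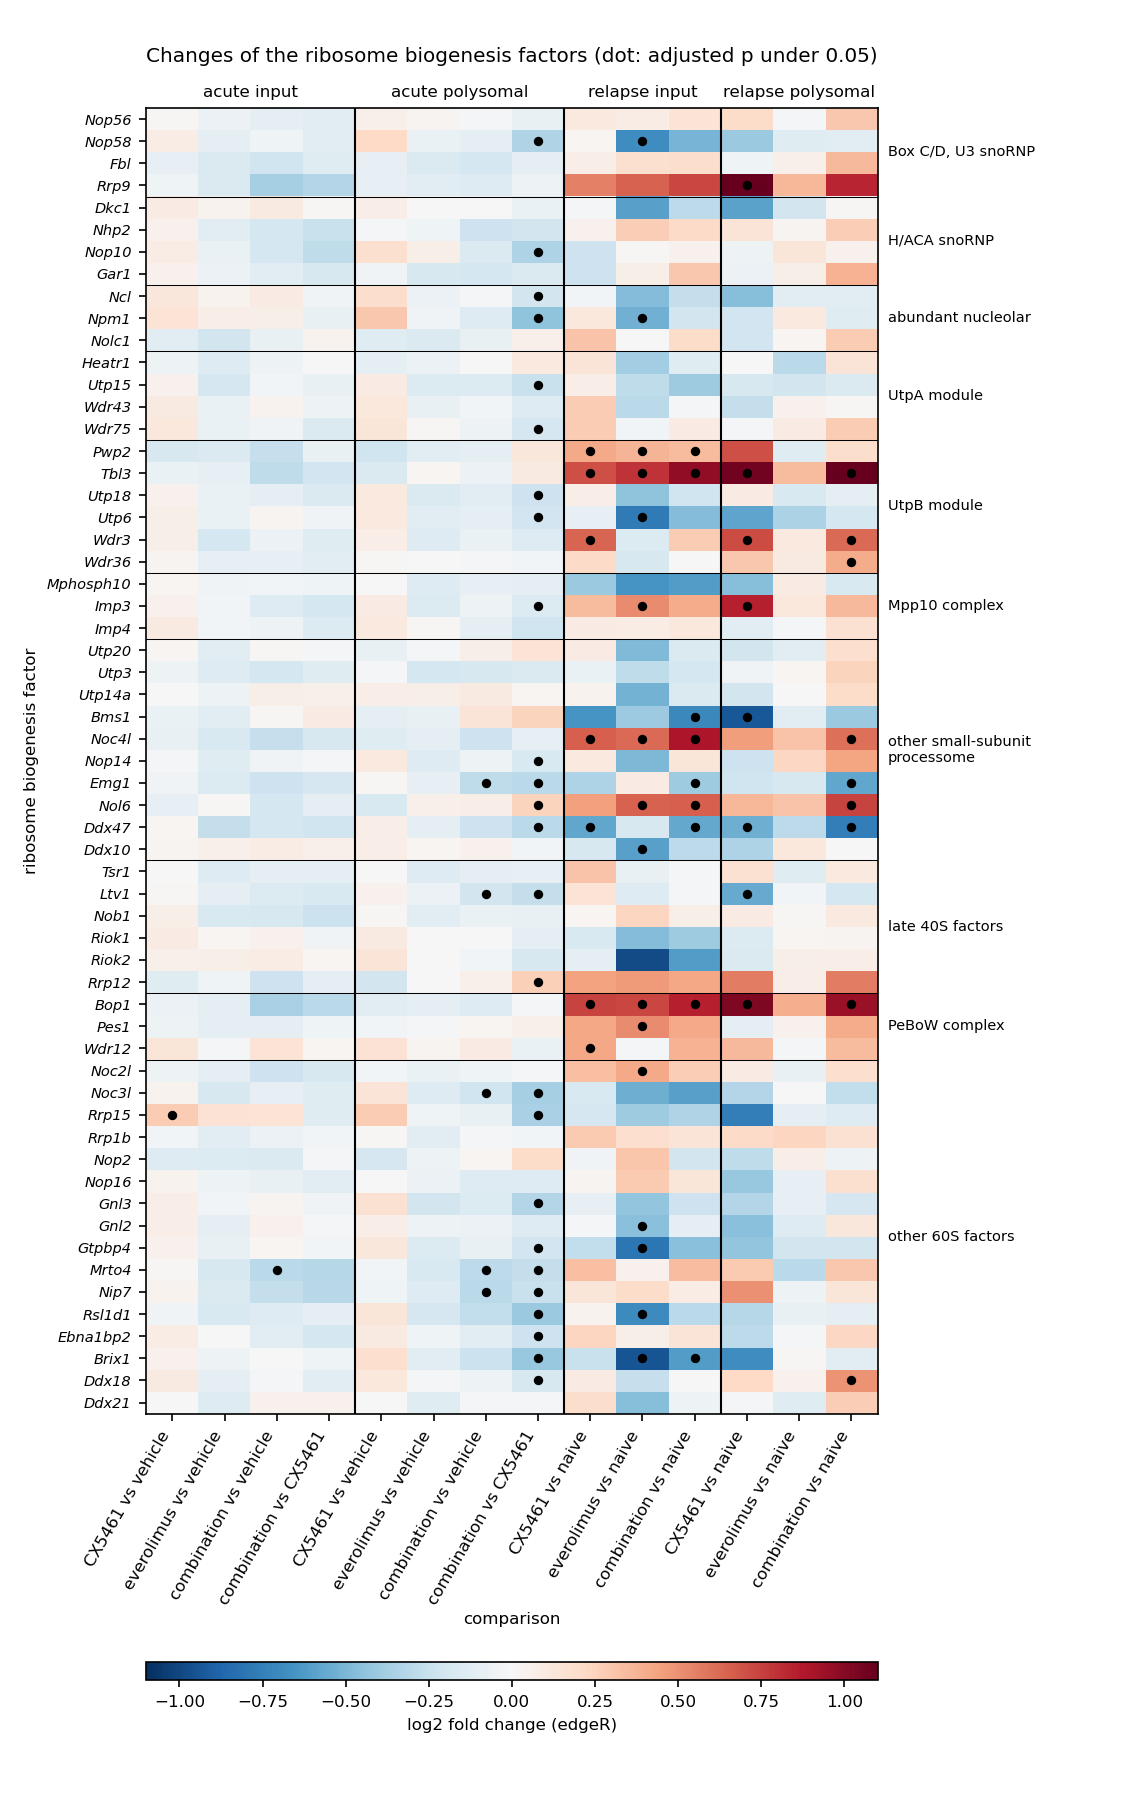
Log2 differences of the 59 members, grouped by role, in 14 comparisons; dots mark members called by edgeR at adjusted p under 0.05. The block with most dots among drug contrasts is acute polysomal combination against CX-5461, with 25.

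Other genes of the pathway, from lists of assembly factors, exosome, RNA polymerase I and Myc network, were read from the same fits. With the acute combination against vehicle in input, 4 of 29 other small-subunit factors and 2 of 34 other large-subunit factors were lower and none higher. Of all genes 4.17% were lower and 3.31% higher there, and 2.95% and 4.46% in polysomal RNA. Dimt1, an rRNA dimethylase, fell by 0.39 ± 0.09 (SE) and Eif6, which keeps 60S subunits from joining early, by 0.35 ± 0.11. Of 15 RNA polymerase I genes 1 was lower and none higher: Rrn3, an initiation factor, fell by 0.22 ± 0.06 in input and by 0.27 ± 0.07 in polysomal RNA, the only gene of that list called in either. Of 8 Myc network genes 2 were higher and 1 lower in each fraction, and Mnt, a Max partner that opposes Myc, rose by 0.36 and 0.43. With the combination against CX-5461 in polysomal RNA, 10 of 29 other small-subunit factors were lower and 3 higher, 9 of 34 large-subunit factors lower and 2 higher, and 7 of 13 exosome subunits lower and none higher. Of all genes 10.5% were lower and 13.1% higher in this contrast. Fcf1 was lower by 0.45 ± 0.08 and Rpf2 by 0.40 ± 0.09 (SE), while Tcof1 was higher by 0.71 ± 0.17. In relapse input, in CX-5461, everolimus and combination lines in turn, 4, 7 and 5 of the 29 small-subunit factors were higher and 0, 2 and 1 lower, and 2, 4 and 4 of the 34 large-subunit factors were higher and 1, 4 and 2 lower. Of all genes 4.61%, 6.25% and 7.2% were higher and 3.76%, 5.46% and 6.31% lower. Of the 15 RNA polymerase I genes 2, 3 and 3 were higher and 1, 0 and 2 lower, with medians of 0.19, -0.005 and -0.076, beside the 8.37%, 11.7% and 13.5% of all genes given above. The higher ones were Polr1b, at 0.67 ± 0.12, 0.51 ± 0.12 and 0.43 ± 0.12, and Polr1c, at 0.58 ± 0.14, 0.66 ± 0.14 and 0.51 ± 0.14 (SE), with Taf1c in the everolimus and combination contrasts. Polr1a fell by 0.74 ± 0.15 and 0.71 ± 0.15 in CX-5461 and combination lines, and Taf1d was lower in combination lines. Of the 8 Myc network genes 2, 1 and 1 were higher and none lower. Myc rose by 1.00 ± 0.16, 0.65 ± 0.16 and 0.88 ± 0.16 (SE), reads of transgene and endogenous gene together.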

How the data were processed

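RNA-seq counts per gene were deposited by the authors in 4 tables, 2 fractions of 2 experiments, with 24 libraries in each acute table and 12 in each relapse table. Per the submitters' processing notes, TopHat2, HTSeq and GRCm38 were used; versions, strand setting and annotation are not given in the sources used here. Depth was 17079034 to 24702803 counts in acute input, 11528341 to 20854565 in acute polysomal, 14566897 to 26016328 in relapse input and 15528791 to 30383886 in relapse polysomal libraries. Rows naming no gene (5.79% to 26% of acute reads) were left out.

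Counts were tested with edgeR 4.0.16 (R 4.3.3; TMM, filterByExpr, quasi-likelihood test) over every gene of a table, all treatments in one model, with Benjamini-Hochberg adjustment over all genes tested and a threshold of 0.05. Errors are SE, from the estimate over the root of F. Levels are log2 CPM with a prior count of 2. The polysome to input ratio and its change with drug came from one model with mouse or line as a block. Mice are separate animals per the labels; p-values of relapse lines measure the spread between lines. Named members are those that passed, up to the 8 largest in each direction, the extremes where none passed, and members of a list of names where space allowed. Members and gene lists were chosen with earlier results of these data known. Alternatives were DESeq2 1.42.0, RLE factors, no count filter, compared groups alone, a replicate block, leaving out libraries, and offsets for GC content and length. Replicate numbers did not pair acute samples: the mean correlation of deviations was 0.012 in input and -0.027 in polysomal RNA. Input libraries correlated best with the polysomal library of their own mouse in 21 of 24 cases, and of their own line in 7 of 12. The fits were also run on simulated counts, with a fixed spread and changes larger than the acute drug differences above. No mouse or line effect and no trend with GC content or length was simulated, so that run does not cover these. Coding sequences are from GENCODE and promoters from RefSeq.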

Additional observations from a re-analysis of the deposited data

Results flagged for a closer look

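Each of 72 checks took the level of 1 called member, or the sum of all members, in a group of 6 mice. The checks share mice and used members called in these data, so they are not independent. A sample far from the others was found in 3 (4.17%), where chance gives about 1 in 20 for independent checks. In each, the gap to the nearest mouse, divided by the range of the group, exceeded Dixon's critical value for 6 samples. Polysomal Gnl3 was highest in CX-5461 mouse 4, at 7.82 log2 CPM against 7.68 to 7.73 in the others, with a gap of 0.643 of the range. Polysomal Ltv1 was lowest in everolimus mouse 5, at 5.55 against 5.68 to 5.75, with a gap of 0.65. Polysomal Nop58 was highest in combination mouse 2, at 8.43 against 8.23 to 8.30, with a gap of 0.65.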

How the results depend on the processing

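Counts of members called are compared here. With the compared groups alone, acute counts were 0 for CX-5461 in input, 1 for CX-5461 in polysomal RNA and 0 for the combination in input; relapse counts were 2, 5 and 5 in input for CX-5461, everolimus and combination, 1 for CX-5461 in polysomal RNA and 1 for combination against everolimus in polysomal RNA. DESeq2 gave 3 for acute polysomal CX-5461, 7 and 8 for the combination in input and polysomal RNA, and 5 for combination against CX-5461 in input. In relapse lines it gave 12, 27 and 16 in input, 16 for polysomal CX-5461, 3 and 9 for combination against everolimus, and 4 and 1 for the ratio under CX-5461 and everolimus. Without the count filter the counts were 0 for CX-5461 and 0 and 1 for the combination in input and polysomal RNA.

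The replicate numbers do not pair the samples; with the replicate block the counts were 0 and 1 for CX-5461 in input and polysomal RNA, 2 and 2 for the combination, and 24 for combination against CX-5461 in polysomal RNA. With no block of mouse or line in the ratio model, the polysome to input counts were 38 in vehicle mice and 47 in naive lines.

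The following alternatives were chosen after seeing the data. With the GC curve the counts were 0 for acute CX-5461 in input, 3 and 9 for the combination, 7 for combination against CX-5461 in input, 0 for everolimus relapse input and 3 for combination against everolimus in polysomal RNA. With GC and length curves they were 0, 7, 4 for combination against CX-5461 in input, 14 for the same in polysomal RNA, 12 and 1 for relapse input CX-5461 and everolimus, and 3. With the run of columns as a term they were 15, 35 and 20 in relapse input, 1 and 19 for polysomal CX-5461 and combination, and 3 and 12 for combination against everolimus. With the share of reads without a gene as covariate, the combination gave 0 and 11. Leaving out everolimus mouse 3, or the 3 libraries rich in Gm26870 and Gm10800, gave 0 for acute CX-5461 input. Without the 4 polysomal libraries rich in Lars2 and Yam1, 21 acute polysomal member calls were kept and 9 were lost, all with their sign unchanged. Without lines 14 and 39 the polysomal counts were 0 for CX-5461 and 5 for combination against everolimus.

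Leaving out a line gave, in input, 0 to 7 for CX-5461 (0 without line 14, 1 without 39, 2 without naive 33 or 38, 4 without combination 8), 0 to 15 for everolimus (0 without 12 or 26, 4 without naive 6, 7 without naive 38, 8 without line 4, naive 33 or CX-5461 14, 9 without combination 9) and 3 to 11 for the combination (3 without 9, 4 without 8, 5 without naive 6). In polysomal RNA it gave 2 to 39 for CX-5461 (39 without 20, 3 without 14, 4 without 39, 2 without naive 33 or 38), 0 for everolimus and 2 to 16 for the combination (2 without naive 33 or 38, 4 without 31, 5 without 9, 16 without CX-5461 20). Combination against everolimus gave 0 in input and 0 to 9 in polysomal RNA (9 without CX-5461 20), the ratio under CX-5461 0 to 23 (23 without line 20), and naive polysome to input 41 to 51.

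In vehicle mice the polysome to input difference changed sign for Wdr36 (-0.028 with the GC curve, -0.072 with both curves), Ltv1 (-0.007 and -0.003), Utp20 (-0.092 with both) and Wdr12 (-0.075 with both), and in naive lines for Bop1 (0.103 and 0.068). The cause was not tested. Members had at least 81 counts in every library, and groups of 3 lines limit the relapse calls.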
